A study of Mus musculus with 16 samples.

Results

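GFP+ cells were compared with GFP- cells of the same olfactory mucosa in mice that had been exposed to odor. The comparison used 8 of the 16 arrays of the series, from 4 of its 8 pools, and took within each odor pool the log2 level in GFP+ cells minus the log2 level in GFP- cells for each of 19505 genes. All mice carried S100a5-tauGFP, in which the S100a5 promoter drives a green fluorescent protein joined to tau, so that the sort itself rests on the activity of one promoter and the controls carry the same allele. The labels state neither the strain, nor the copy number of the allele, nor the sorting gates. The 24 mice of the study, of both sexes and aged 7 to 12 weeks, were kept singly in chambers of clean air for 40 hours at 3.1 L/min. From hour 26 a pulse of 10 seconds was given every 20 min, of indole/ionone in the odor arm and of filtered air, the vehicle, in the other arm. Mucosa of 3 mice was pooled, dissociated and sorted, which gave 1 GFP+ and 1 GFP- sample per pool. The labels name no cell number and no ionone isomer. In each array 50 to 100 ng of total RNA was used, so a gene's lower level in a fraction can come from fewer cells that express it or from less RNA per cell, and these cannot be told apart in bulk samples.

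Olfactory sensory neurons are the bipolar neurons of this tissue. Each mature neuron expresses 1 odorant receptor gene, turns odor binding into cyclic AMP through a G protein and adenylyl cyclase, and sends its axon to a glomerulus shared with neurons of the same receptor. S100a5 encodes a calcium-binding protein whose mRNA in these neurons depends on their activity. Kirrel2, an immunoglobulin-domain adhesion protein, and Pcdh10, a protocadherin, are surface proteins that are also raised by activity and take part in sorting the axons into glomeruli. Omp, the olfactory marker protein, marks mature neurons regardless of their activity. The mucosa also holds neuronal progenitors, immature neurons, supporting (sustentacular) cells, glands, microvillar cells and blood cells.

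The promoters of the reporter gene, of both other activity markers and of Fos are shown because the sort and the comparisons below turn on genes that answer to activity. Each window runs from 250 bases before to 50 bases after the start of transcription, is taken from RefSeq for the assembly GRCm38.p6 and is written 5' to 3' on the strand of the gene. Capitals mark matches, on either strand, of the cyclic AMP response element core TGACG, the homeodomain core TAATTA or the Ebf core CCCNNGGG. The windows are chr3:90608272-90608571 (plus strand) for S100a5, chr3:45378148-45378447 (plus strand) for Pcdh10, chr7:30457466-30457765 (minus strand) for Kirrel2 and chr12:85473640-85473939 (plus strand) for Fos.
S100a5: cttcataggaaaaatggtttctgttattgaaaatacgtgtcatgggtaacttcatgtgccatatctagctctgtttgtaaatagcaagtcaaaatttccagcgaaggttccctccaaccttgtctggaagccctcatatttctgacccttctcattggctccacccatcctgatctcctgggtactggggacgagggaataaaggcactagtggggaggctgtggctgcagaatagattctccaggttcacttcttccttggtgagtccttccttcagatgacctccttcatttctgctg
Pcdh10: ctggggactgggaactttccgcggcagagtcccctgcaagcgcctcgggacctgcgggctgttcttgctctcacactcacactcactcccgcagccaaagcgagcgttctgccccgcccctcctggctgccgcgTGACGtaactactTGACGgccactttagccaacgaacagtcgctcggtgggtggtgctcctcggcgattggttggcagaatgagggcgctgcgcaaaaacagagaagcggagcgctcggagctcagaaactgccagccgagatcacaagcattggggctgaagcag
Kirrel2: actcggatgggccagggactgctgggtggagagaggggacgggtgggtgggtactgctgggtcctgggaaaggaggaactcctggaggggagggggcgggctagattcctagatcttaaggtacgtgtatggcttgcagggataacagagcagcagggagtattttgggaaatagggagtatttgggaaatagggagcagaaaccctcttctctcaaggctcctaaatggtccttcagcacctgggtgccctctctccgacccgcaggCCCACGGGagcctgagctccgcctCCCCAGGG
Fos: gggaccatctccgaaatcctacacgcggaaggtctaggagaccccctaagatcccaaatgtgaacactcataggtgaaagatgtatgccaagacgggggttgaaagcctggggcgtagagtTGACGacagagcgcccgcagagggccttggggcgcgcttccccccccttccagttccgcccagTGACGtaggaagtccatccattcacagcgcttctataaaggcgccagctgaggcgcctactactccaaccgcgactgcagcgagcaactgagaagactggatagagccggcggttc
In Pcdh10 the letters TGACG stood at 116 and 103 bases before the start and in Fos at 129 and 66 bases before it, Kirrel2 held CCCNNGGG at 2 places, and S100a5 held none of the 3 motifs in this window. TGACG lay in 20.8% of all 32851 windows of this length, TAATTA in 5.29% and CCCNNGGG in 13.7%. In the 19143 windows of genes measured here the shares were 24.4%, 4.45% and 15.9%. Among windows of genes with a higher level in GFP+ cells the shares were 20.3%, 7.31% and 11.8%, and among windows of genes with a lower level 18.3%, 5.11% and 16.8%. None of the 3 motifs contains another, and a match describes letters only.

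A gene was called higher or lower where limma's moderated test of the mean difference in the 4 odor pools, with the variance estimated from the odor and filtered-air pools together, gave a Benjamini-Hochberg adjusted p under 0.05 over all 19505 genes. By this rule 1552 genes (7.96%) were higher and 2068 (10.6%) lower in GFP+ cells. These include 236 higher and 295 lower genes that were not above background, as defined below, in either fraction. Of the 3620 calls 42.9% were on the higher side. The median difference of all genes was 0.115, and setting each array's median to the same value raised it to 0.338, gave 6458 genes higher and 1766 lower and moved the higher share to 78.5%. Small positive differences therefore depended on the scaling. Calls, intervals and fold differences are measured from 0, and the medians of gene lists can be read beside the all-gene median of 0.115. Calls kept when each odor pool in turn was left out numbered 678 higher and 1561 lower. Without odor replicate 1 the number higher was 972. Odor arrays of the same fraction correlated at 0.974 to 0.987 across probes and those of different fractions at 0.951 to 0.965. The GFP- array of pool 3 stood apart on the second principal component, at 90.4 against at most 27.6 for any other array, and the Y-linked gene Eif2s3y was under the background in both fractions of that pool. Background means the median of 23 antigenomic probes on the same array, which lay between 5.66 and 6.01 in the 8 arrays. A gene at or under it on all 4 arrays of a fraction is called not above background there, and its difference is then given as a bound, "at least N-fold", from the mean of the other fraction against the mean of the floors. A gene that was not above background in either fraction has no bound.

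S100a5 itself was higher in the GFP+ fraction of each pool. Its log2 level in GFP+ cells was 16.50, 16.17, 16.21 and 16.32 in pools 1 to 4, and in GFP- cells 15.31, 15.25, 14.35 and 15.06. The groups did not overlap, pool 3 had the lowest GFP- level, and all 4 GFP- levels lay far above background. The mean difference was 1.31 ± 0.17 on the log2 scale (SE of the limma fit, n = 4 odor pools, adjusted p = 1.84e-04), with a 95% interval from 0.93 to 1.68. Pcdh10 had levels of 11.78, 11.13, 10.92 and 11.29 in GFP+ cells against 9.74, 9.27, 8.75 and 9.95 in GFP- cells. These groups did not overlap either, and the difference was 1.85 ± 0.19 (adjusted p = 2.64e-05). Kirrel2 had levels of 16.08, 15.31, 15.34 and 15.87 in GFP+ cells against 15.46, 14.37, 13.79 and 15.22 in GFP- cells. Here the groups overlapped, since the GFP- level of pool 1 exceeded the GFP+ levels of pools 2 and 3, while within each pool the GFP+ level was the higher, with a difference of 0.94 ± 0.17 (adjusted p = 0.0021). Omp lay at 18.50, 18.48, 18.50 and 18.51 in GFP+ cells and at 18.41, 18.50, 18.35 and 18.51 in GFP- cells. The difference of Omp was 0.06 ± 0.12 (adjusted p = 0.8), with an interval from -0.22 to 0.33, at levels near the highest array value of 19.35.

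**Figure D1:**
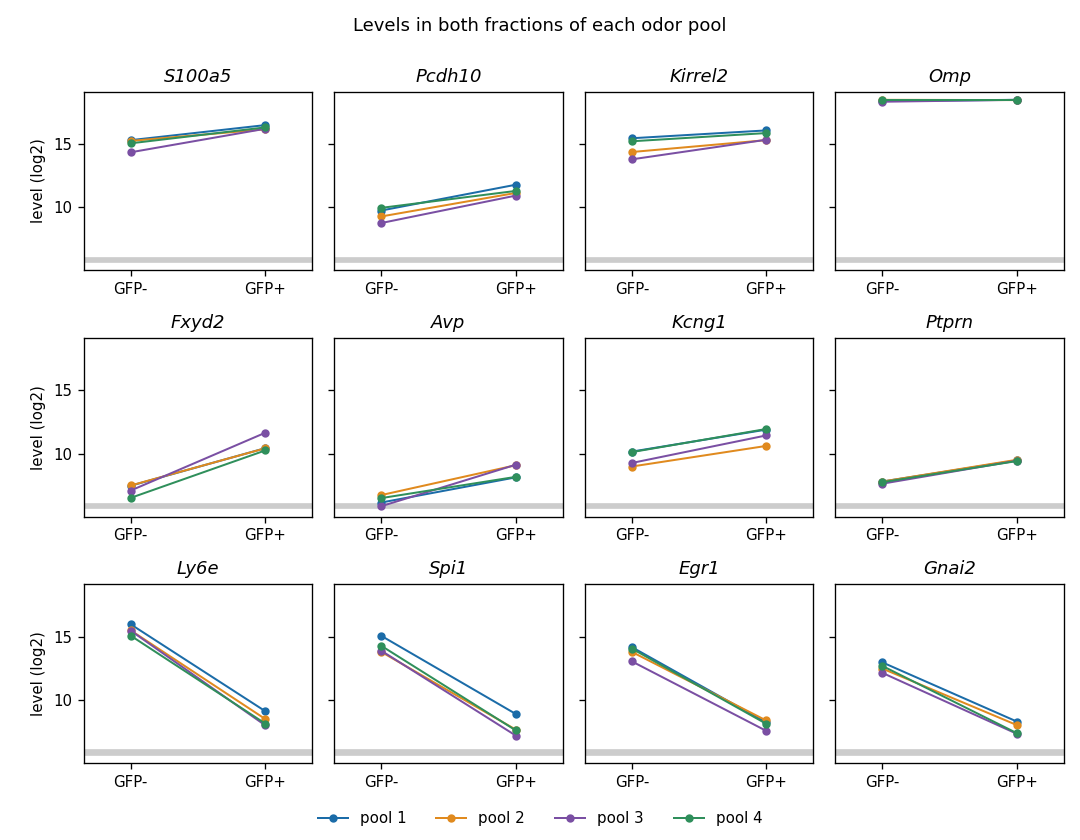
Log2 level (vertical axis) of 12 genes in GFP- and GFP+ cells of the 4 odor pools, 1 line per pool, with the range of the background medians as a grey band. S100a5, Pcdh10, Kirrel2, Fxyd2, Avp, Kcng1 and Ptprn were higher in the GFP+ cells of each pool, Ly6e, Spi1, Egr1 and Gnai2 were lower, and Omp lay near 18.50 in both fractions.

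Of 11 measured genes of a list of sensory neuron genes raised by activity, 8 were higher and 0 lower, with a median of 0.95 beside 0.115 for all genes, and 7 of the 8 remained without each odor pool in turn. The list holds S100a5, on which the sort rests. Besides the markers above it included Pcp4l1, a small protein related to the calmodulin regulator Pcp4. The levels of Pcp4l1 were 15.91, 15.50, 15.74 and 15.78 in GFP+ cells and 14.08, 14.16, 12.95 and 14.54 in GFP- cells, a difference of 1.80 ± 0.24 (adjusted p = 1.95e-04). The GFP- level of pool 3 was again the lowest. Sema7a, a membrane-anchored semaphorin of sensory axons, was higher by 0.64 ± 0.13 (adjusted p = 0.00416), with differences between 0.58 and 0.72 in the 4 pools. A list of 7 genes lowered by activity held 2 higher and 2 lower, with a median of -0.34. None of the 7 was higher without odor replicate 1, 2 or 4, and 1 was lower without odor replicate 1, 2 or 3. Its member Calb2, the calcium buffer calretinin that also marks immature neurons, lay at 11.90, 12.15, 11.95 and 11.52 in GFP+ cells and at 16.05, 16.30, 16.31 and 16.01 in GFP- cells. Calb2 was lower by 4.29 on the log2 scale with an SE of 0.13 (adjusted p = 2.85e-09), and its groups were far apart in each pool. Kirrel3, the counterpart of Kirrel2 in less active axons, differed by -0.34 ± 0.14 and was not called (adjusted p = 0.114).

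S100a5 was the member of the S100 calcium-binding family that separated upward most clearly. Of 17 measured S100 genes 3 were higher and 6 lower, with a median of 0.07. Without odor replicate 4 neither S100a13, at 0.57 ± 0.15 (adjusted p = 0.0228, and 0.11 without that pool), nor S100a3, at least 1.11-fold higher (0.0728 without that pool), was called, which left S100a5 alone on the higher side. S100a13 also lost its call without odor replicate 2 (adjusted p = 0.0564) or 3 (0.0928). The lower members were S100a8 and S100a9, the calprotectin subunits of neutrophils, with S100a11, S100a10, S100a6 and S100a4, the last of which lost its call without odor replicate 4 (adjusted p = 0.0559). S100a9 lay at 15.72, 14.71, 13.93 and 15.23 in GFP- cells and at 6.91, 5.35, 6.24 and 5.32 in GFP+ cells. In GFP+ cells 2 of these 4 arrays did not exceed the background, so the difference of -8.94 ± 0.37 (adjusted p = 2.04e-08) is limited by it. S100a11 was above background in all 4 GFP+ arrays, at 7.25, 6.98, 6.72 and 6.69, against 14.39, 13.12, 12.91 and 13.62 in GFP- cells. Its difference was -6.60 ± 0.37 (adjusted p = 1.69e-07).

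Among genes other than chemosensory receptors, 69 were higher by over 2-fold and 1237 lower by over 2-fold, and the lower side reached further, with 163 genes lower and 0 higher by over 16-fold. The largest higher difference above background was that of Fxyd2, the gamma subunit that tunes the sodium/potassium pump. Fxyd2 levels were 10.43, 10.42, 11.65 and 10.25 in GFP+ cells and 7.46, 7.48, 7.08 and 6.50 in GFP- cells. The lowest GFP+ level thus lay above the highest GFP- level, and the mean difference was 3.56 ± 0.30 (adjusted p = 5.01e-06). Avp, the precursor of vasopressin, lay at 8.12, 9.08, 9.12 and 8.16 in GFP+ cells and at 6.13, 6.72, 5.84 and 6.48 in GFP- cells. Its GFP- levels were close to background but above it in each pool, and the difference was 2.33 ± 0.30 (adjusted p = 1.44e-04). Kcng1, a modifier subunit of voltage-gated potassium channels, lay at 11.90, 10.61, 11.44 and 11.95 against 10.16, 8.98, 9.26 and 10.12. Kcng1 was higher by 1.85 ± 0.14 (adjusted p = 2.51e-06), with pool 2 the lowest in both fractions. Ptprn, a transmembrane protein of dense-core vesicles, varied little between pools and lay at 9.46, 9.51, 9.44 and 9.41 in GFP+ cells and at 7.79, 7.79, 7.62 and 7.74 in GFP- cells. Its difference was 1.72 ± 0.15 (adjusted p = 6.04e-06).

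The same order continued with Lrrc3b, a leucine-rich repeat membrane protein, at 1.76 ± 0.20 and Caly, a neuronal vesicle protein that regulates endocytosis, at 1.71 ± 0.20. Kcnmb3, an accessory subunit of the calcium-activated BK potassium channel, lay at 15.54, 15.17, 15.45 and 15.46 in GFP+ cells and at 14.28, 13.96, 12.79 and 14.52 in GFP- cells. Kcnmb3 was higher by 1.52 ± 0.24 (adjusted p = 7.32e-04), and its difference of 2.66 in pool 3 stood above those of the other pools, 0.94 to 1.26. Hs3st1, a heparan sulfate sulfotransferase, was higher by 1.52 ± 0.17, the protocadherin Pcdh8 by 1.40 ± 0.17, the retinoic acid-degrading enzyme Cyp26b1 by 1.38 ± 0.18 and the transcription factor Rfx4 by 1.36 ± 0.17. Each of these had a limma adjusted p at or under 1.45e-04 except Kcnmb3. Acyp2, an acylphosphatase, differed by 1.31 ± 0.32 (adjusted p = 0.0137). Its call was lost without odor replicate 1 (adjusted p = 0.0523) and without odor replicate 3 (adjusted p = 0.0772).

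**Figure D2:**
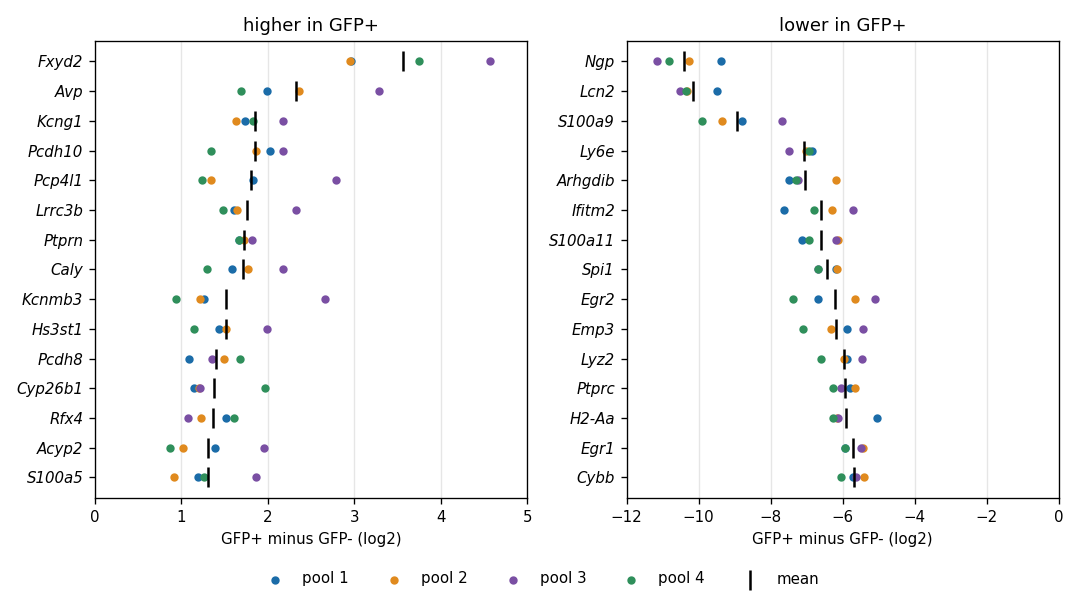
GFP+ minus GFP- log2 difference (horizontal axis) of the 15 genes with the largest differences in each direction that were called with 1 sign in all pools, had a mean level over the mean background in both fractions and were no chemosensory receptors, with 1 point per odor pool and a bar at the mean. In 12 of the 15 higher genes pool 3 had the largest difference, Fxyd2 reaching 4.57 there, and in 4 of the 15 lower genes.

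Potassium channels contributed beyond Kcng1 and Kcnmb3. Of 90 measured potassium channel genes 8 were higher and 6 lower, with a median of 0.20, and 6 of each remained without each odor pool in turn. These shares lay near those of all genes, and median centring called 38 of the 90 higher. Kcnn2, a small-conductance calcium-activated channel, lay at 13.04, 13.21, 12.89 and 12.98 in GFP+ cells and at 11.98, 12.33, 11.97 and 12.15 in GFP- cells. The fractions of Kcnn2 did not overlap, and the difference was 0.92 ± 0.13 (adjusted p = 2.89e-04). Kcnrg, a regulator of channel assembly, was higher by 1.00 ± 0.20 and Kcna1, a delayed rectifier, by 0.77 ± 0.16, with 2 GFP- arrays of Kcna1 at or under background. Kcnk1, a two-pore leak channel, was lower by 1.88 on the log2 scale (SE 0.32, adjusted p = 0.00128). Of 10 sodium channel genes 3 were higher, but only 1 without odor replicate 2 and only 1 without odor replicate 3. The stable one was Scn4b, an accessory beta subunit, at 15.53, 15.71, 15.77 and 15.78 in GFP+ cells and between 14.77 and 15.10 in GFP- cells. Scn4b was higher by 0.77 ± 0.13 (adjusted p = 9.11e-04).

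In the odor transduction cascade itself most genes were not called, as was so of all genes. Of 27 measured members 3 (11.1%) were higher and 3 (11.1%) lower, against 7.96% and 10.6% of all genes. Their median was 0.16, and median centring called 13 higher. Gnal, the G protein alpha subunit of odor transduction, differed by 0.16 ± 0.13 (interval -0.13 to 0.46) and Adcy3, the adenylyl cyclase of the cilia, by 0.14 ± 0.13 (interval -0.15 to 0.42). Cnga2, the main subunit of the cyclic nucleotide-gated channel, differed by 0.21 ± 0.13 (interval -0.07 to 0.49). None of these 3 was called, although median centring called Gnal (adjusted p = 0.0452) and Cnga2 (adjusted p = 0.0275) higher. Slc8a1, a sodium/calcium exchanger that clears calcium from the cell, lay at 11.57, 11.95, 11.75 and 11.73 in GFP+ cells and at 10.38, 10.48, 11.03 and 10.46 in GFP- cells. Slc8a1 was higher by 1.16 ± 0.16 (adjusted p = 2.91e-04), with the smallest gap in pool 3. Pde1c, the calcium-stimulated phosphodiesterase of the cilia, was higher by 0.67 ± 0.12 (adjusted p = 0.00241), with differences of 0.66, 0.77, 0.65 and 0.61. The lower members were Rgs2, a regulator of G protein signalling, at least 12.2-fold lower, Grk3, a receptor kinase, and Pde2a, given below. Grk3 differed by -1.0 on the log2 scale but was not above background in either fraction, so no bound is given. The chloride channel Ano2, at 0.44 ± 0.12 (adjusted p = 0.0267), lost its call without odor replicate 1 (adjusted p = 0.121), replicate 2 (0.0688) and replicate 4 (0.0771).

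Of all genes 7.96% were higher and 10.6% lower. In the families of axon guidance and adhesion given here, the shares called lower did not exceed the latter. Of 12 nonclustered protocadherins 4 (33.3%) were higher and 1 (8.3%) lower, with a median of 0.38, and none was lower without odor replicate 1 or 3. Besides Pcdh10 and Pcdh8 these were Pcdh7, at 1.03 ± 0.18 (adjusted p = 0.00159), and Pcdh17, at 0.62 ± 0.17 (adjusted p = 0.0277), whose call was lost without odor replicate 1, 2 or 4 (adjusted p = 0.0968, 0.0863 and 0.117). Of 20 clustered protocadherins 4 (20.0%) were higher and 0 lower, with a median of 0.36, and median centring called 17 higher. That count was 2 without odor replicate 2 and 1 without odor replicate 4, where Pcdhb13 remained, at 1.05 ± 0.15 (adjusted p = 3.67e-04). Semaphorins, secreted or membrane-bound guidance cues, were higher in 5 (26.3%) and lower in 1 (5.3%) of 19, with a median of 0.08. Without odor replicate 1, 2 or 3 they were higher in 3 and lower in 0. Sema3e, a secreted one, lay at 11.41, 11.86, 11.50 and 11.22 in GFP+ cells and at 9.93, 10.77, 10.76 and 10.29 in GFP- cells, with no overlap. Sema3e was higher by 1.06 ± 0.15 (adjusted p = 4.02e-04). Of 10 plexins and neuropilins, the receptors of semaphorins, 3 (30.0%) were higher and 1 (10.0%) lower, with 1 higher without odor replicate 2. Plxnb3 was higher by 0.90 ± 0.16 (adjusted p = 0.0018), and Plxnc1, a receptor of Sema7a, was lower by 0.72 on the log2 scale (SE 0.15, adjusted p = 0.0058). Cdh1, the epithelial cadherin, lay at 7.56, 7.42, 7.28 and 7.11 in GFP+ cells and at 11.75, 11.42, 11.80 and 11.50 in GFP- cells, and was lower by 4.27 on the log2 scale (SE 0.14, adjusted p = 4.94e-09).

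A list of 39 neuropeptides and growth factors, in which Avp is not included, held 4 higher (10.3%) and 5 lower (12.8%) members, near the shares of all genes (7.96% and 10.6%), with a median of 0.07. The lower count was 3 without odor replicate 1, 2 or 4. Pdgfa, a platelet-derived growth factor chain, was higher by 1.07 ± 0.17 (adjusted p = 7.88e-04), Nppc, the precursor of C-type natriuretic peptide, by 0.83 ± 0.16, the growth factor Fgf9 by 0.68 ± 0.14 and the vesicle protein Chgb by 0.80 ± 0.18. The call of Chgb was lost without odor replicate 2 (adjusted p = 0.0507). Chga, the vesicle protein related to Chgb, lay at 17.15, 17.24, 17.18 and 17.21 in GFP+ cells and at 17.03, 17.12, 17.30 and 17.08 in GFP- cells. These groups overlapped, and the difference of 0.06 ± 0.13 (interval -0.22 to 0.35) was not called. Tgfb1, a cytokine of many leukocytes, was lower by 3.70 on the log2 scale (SE 0.24, adjusted p = 5.04e-07), with 2 of 4 GFP+ arrays above background. Vegfa, the endothelial growth factor, was lower by 0.91 (SE 0.19, adjusted p = 0.00573). Of 16 synaptotagmins, calcium sensors of vesicle release, 3 were higher and 0 lower. Without odor replicate 2 or 4 this was 1, and Syt4, at 0.88 ± 0.15 (adjusted p = 0.00133), was called in each case.

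The median differences of mitochondrial groups were largest in pool 3. The 76 mitochondrial ribosomal protein genes had a median difference of 0.43 and the 37 complex I genes one of 0.44, against 0.115 for all genes. By pool these medians were 0.28, 0.21, 0.89 and 0.12 for the ribosomal proteins and 0.34, 0.23, 0.96 and 0.17 for complex I, and in filtered air both were 0.23. Of the ribosomal protein genes 9 were higher (11.8%, against 7.96% of all genes) and 0 lower. Yet without odor replicate 1 and without odor replicate 3 the higher count was 0, and without odor replicate 2 it was 5. Ndufb8 was the complex I gene that was called (2.7% of that group), at 0.60 ± 0.14 (adjusted p = 0.0107). Median centring called 49 of the mitochondrial ribosomal and 25 of the complex I genes higher, and 2 complex I genes were higher without odor replicate 1. The 17 ATP synthase genes had no call and a median of 0.34, which was 0.22, 0.14, 1.01 and 0.06 by pool and 0.11 in filtered air. Glycolysis genes went apart: 1 of 21 was higher and 5 were lower, and the median of 0.02 turned to -0.02 with quantile normalization. Eno2, the neuronal enolase, was higher by 1.08 ± 0.18 (adjusted p = 9.93e-04). Ldha, the lactate dehydrogenase A subunit, lay at 8.24, 7.79, 8.09 and 7.71 in GFP+ cells and at 11.96, 10.82, 10.83 and 11.46 in GFP- cells. Ldha was lower by 3.31 on the log2 scale (SE 0.27, adjusted p = 3.65e-06). Slc2a3, a glucose transporter, was not above background in GFP+ cells and was at least 6.80-fold lower there.

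Among genes other than receptors, Ngp, a neutrophil granule protein, had the largest lower difference. It lay at 17.68, 17.17, 16.38 and 17.30 in GFP- cells and at 8.31, 6.90, 5.23 and 6.47 in GFP+ cells. Its level in GFP+ cells was highest in pool 1 and under the background in pool 3, and the difference was -10.41 ± 0.25 (adjusted p = 1.04e-09). Ly6e, a GPI-anchored surface protein of leukocytes and other cells, lay at 15.99, 15.51, 15.49 and 15.09 against 9.12, 8.50, 8.0 and 8.14. Ly6e was above background in all 8 arrays, and its difference was -7.08 ± 0.18 (adjusted p = 1.04e-09). Spi1, the master transcription factor of myeloid cells, lay at 15.08, 13.81, 13.90 and 14.29 in GFP- cells and at 8.90, 7.66, 7.19 and 7.60 in GFP+ cells, a difference of -6.43 ± 0.19 (adjusted p = 2.15e-09). Pool 1 had the highest level of Spi1 in both fractions. The interferon-induced Ifitm2 was lower by 6.61 (SE 0.30), Lyz2, the lysozyme of myeloid cells, by 5.98 (SE 0.23), Ptprc, the pan-leukocyte phosphatase CD45, by 5.94 (SE 0.15) and Cybb, the phagocyte oxidase subunit, by 5.70 (SE 0.19), all on the log2 scale. Of these, Ptprc exceeded the background in 2 of 4 GFP+ arrays.

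Marker lists gave the same separation across whole cell types. Of 14 neutrophil markers 14 were lower (10.6% of all genes were), and the log2 of their summed levels was 18.29 to 19.50 in GFP- and 9.16 to 10.55 in GFP+ cells. In GFP+ cells 6 of these markers were not above background in any pool, among them the granule protease Mmp8, at least 135-fold lower, the gelatinase Mmp9, at least 117-fold lower, and lactoferrin, Ltf, at least 120-fold lower. Macrophage and dendritic cell markers were lower in 8 of 12, with summed levels of 9.90 to 11.27 in GFP+ and 14.16 to 15.97 in GFP- cells. Lymphocyte markers were lower in 11 of 14, and 11 were not above background in GFP+ cells. Erythroid markers were lower in 6 of 7, and 5 were not above background in GFP+ cells.

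Gene families that are rich in leukocyte surface proteins followed. Of 72 genes named as CD antigens 36 were lower, 33 of them without each odor pool in turn, and 1 was higher, with 0 higher without odor replicate 3 or 4. Cd37, a tetraspanin of B cells, was at least 42.1-fold lower and Cd24a, a surface glycoprotein of immature cells, at least 73.9-fold. Fc receptor genes were lower in 6 of 8, the common gamma chain Fcer1g by 5.02 on the log2 scale (SE 0.33) with all 4 GFP+ arrays above background, and Fcgr3 by 4.15 (SE 0.24). Of 35 MHC genes 14 were lower and 1 was higher (2 without odor replicate 1). Among the lower ones, H2-Ab1, a class II chain, was lower by 4.95 on the log2 scale (SE 0.34) and the class I gene H2-K1 by 3.46 (SE 0.17). Chemokine genes and their receptors were lower in 15 of 32, 14 of them without each odor pool in turn. Ccr2, the monocyte receptor, was at least 12.8-fold lower. Integrins were lower in 11 of 29 and in 7 without odor replicate 1, and 1 was higher, which was lost without odor replicate 2 or 4. Itgam and Itgb2, the chains of the myeloid integrin Mac-1, were at least 38.0-fold and at least 15.9-fold lower. Annexins, calcium-dependent membrane-binding proteins, were lower in 6 of 12 and in the same 6 without each odor pool in turn, and 1 was higher without odor replicate 4. Anxa1 lay at 12.95, 11.65, 11.95 and 12.45 in GFP- cells and at 6.37, 5.47, 5.48 and 5.83 in GFP+ cells, where only the level of pool 1 exceeded the background. Its difference was -6.46 ± 0.27 (adjusted p = 2.02e-08). Cathepsins were lower in 8 of 22 with a median of -0.15 that was 0.07 with median centring, and Ctsc, which activates granule proteases, was lower by 3.71 (SE 0.29).

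**Figure D3:**
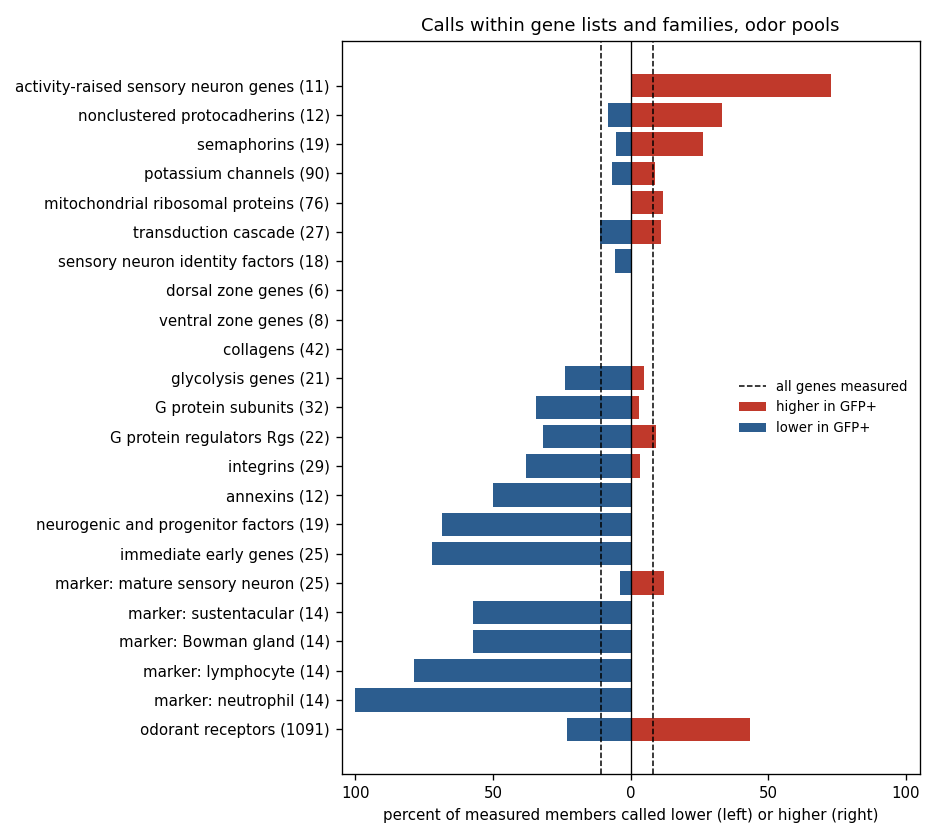
Percent of the measured members of gene lists and families (number in brackets) that were called lower (to the left) or higher (to the right) in GFP+ cells of odor pools. Dashed lines give the shares of all genes, 10.6% lower and 7.96% higher. Neutrophil markers reached 100% lower, and dorsal zone genes, ventral zone genes and collagens had no call. Of the collagens 34 were not above background in GFP+ cells.

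G protein signalling separated by family member. Of 32 G protein subunits 1 was higher and 11 were lower, with a median of -0.04 that turned to 0.18 with median centring. The higher call was lost without odor replicate 2, 3 or 4. Gnai2, an inhibitory alpha subunit of many cell types, blood cells included, lay at 8.30, 8.02, 7.33 and 7.38 in GFP+ cells and at 12.98, 12.49, 12.15 and 12.70 in GFP- cells. The groups did not overlap, and the difference was -4.82 ± 0.17 (adjusted p = 7.96e-09). Gnas, the stimulatory alpha subunit that precedes Gnal in immature sensory neurons, was lower by 3.97 on the log2 scale (SE 0.23), Gng8, a gamma subunit of immature neurons, by 4.44 (SE 0.31) and Gng2, a broadly expressed gamma subunit, by 3.56 (SE 0.24). In GFP+ cells Gng8 lay at 5.34, 6.32, 6.44 and 5.96 and Gng2 at 6.35, 5.46, 5.37 and 5.41. For both genes part of these levels did not exceed the background, which limits their differences. Gng13, the gamma subunit paired with Gnal, differed by 0.38 ± 0.20 (interval -0.05 to 0.81) and was called with median centring alone (adjusted p = 0.041). Of 22 regulators of G protein signalling 2 were higher and 7 lower, with a median of -0.13 that turned to 0.09 with median centring. Rgs7, a regulator of neurons, was higher by 1.22 ± 0.14 (adjusted p = 6e-05), and Rgs7bp, which anchors it to membranes, by 1.10 ± 0.22. Rgs5, a marker of pericytes, lay at 8.62, 8.27, 8.14 and 8.29 in GFP+ cells and at 13.70, 13.14, 12.92 and 13.55 in GFP- cells. Rgs5 was lower by 5.0 (SE 0.16, adjusted p = 3.65e-09), while pericyte and endothelial markers as a list were lower in 2 of 13.

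Phosphodiesterases also divided. Of 21 measured 3 were higher and 5 lower, with a median of -0.17 that turned to 0.05 with median centring. Pde7b, a cyclic AMP phosphodiesterase, lay at 16.89, 16.66, 16.66 and 16.77 in GFP+ cells and at 16.30, 16.21, 15.96 and 16.35 in GFP- cells. Pde7b was higher by 0.55 ± 0.12 (adjusted p = 0.00898). Pde2a, which marks the guanylyl cyclase D neurons of the mucosa, was lower by 3.57 on the log2 scale (SE 0.20, adjusted p = 1.64e-07). Markers of those neurons were lower in 6 of 13 (46.2%, against 10.6% of all genes). That list shares members with the Ms4a family, which was lower in 7 of 18, and the cell type behind these values was not tested. Pde8a, a high-affinity cyclic AMP phosphodiesterase, was lower by 1.64 (SE 0.14, adjusted p = 7.1e-06) in each pool. Protein kinase C genes were lower in 4 of 8, with Prkcb, the isoform of B cells and myeloid cells, at least 12.7-fold lower and Prkcd lower by 2.59 (SE 0.19). A count of 1 higher appeared in this family without odor replicate 3.

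Most factors of neurogenesis and some genes of immature neurons were lower. Of 19 neurogenic and progenitor factors 13 were lower and 0 higher, with a median of -1.06, and 8 remained without each odor pool in turn. Of these 19 genes 11 were not above background in GFP+ cells. Nhlh1, a factor of newly formed neurons, was at least 11.3-fold lower, Myc, a growth regulator, at least 9.89-fold and Kit, a receptor of progenitors, at least 6.60-fold. Sox11, a factor of immature neurons, lay at 8.05, 8.33, 7.48 and 8.76 in GFP+ cells and at 10.47, 11.04, 11.64 and 10.57 in GFP- cells. Sox11 was lower by 2.78 on the log2 scale (SE 0.29, adjusted p = 2.81e-05), and the gap was widest in pool 3. Of 22 growth genes of immature neurons 9 were lower, with a median of -0.19 that turned to 0.03 with median centring. Gap43, the growth cone protein, lay at 6.77, 8.03, 7.55 and 7.75 in GFP+ cells and at 9.39, 9.95, 10.09 and 10.18 in GFP- cells and was lower by 2.38 (SE 0.17, adjusted p = 1.12e-06). Dpysl3, a growth cone protein of semaphorin signalling, was lower by 3.80 (SE 0.16) and the chemokine receptor Cxcr4 by 5.03 (SE 0.28), the latter with 1 of 4 GFP+ arrays above background. Other genes of the same list were not called. Dcx, which binds microtubules in young neurons, differed by 0.23 ± 0.20 (interval -0.22 to 0.68) and Tubb3, the neuronal beta tubulin, by -0.01 ± 0.13 (interval -0.28 to 0.27).

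Genes of dividing cells were among those lower. Of 15 globose basal and dividing cell markers 13 were lower, with summed log2 levels of 13.98 to 14.14 in GFP+ and 14.70 to 15.32 in GFP- cells. Cyclins were lower in 6 of 15, kinesins in 13 of 35 and minichromosome maintenance genes, which license replication, in 4 of 9. Ccnb2, a mitotic cyclin, was lower by 3.65 on the log2 scale (SE 0.29), the mitotic kinesin Kif11 by 2.67 (SE 0.22) and the helicase subunit Mcm6 by 2.18 (SE 0.19). Without odor replicate 1, 2 or 4 no cyclin was higher, against 1 with all pools, and 1 kinesin was higher without odor replicate 3. Tubulins were higher in 2 and lower in 4 of 17, and in 1 higher without any one of the odor replicates. Tuba4a, an alpha tubulin of mature neurons, was higher by 0.68 ± 0.15 (adjusted p = 0.00652), with 0.94, 0.57, 0.95 and 0.28 in the 4 pools. Tubb2b, a beta tubulin of growing neurons, lay at 9.12, 9.99, 9.69 and 9.65 in GFP+ cells and at 11.51, 11.84, 12.45 and 11.94 in GFP- cells. Tubb2b was lower by 2.32 (SE 0.20, adjusted p = 6.93e-06).

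Immediate early genes, which many cell types transcribe within minutes of a stimulus, were lower in GFP+ cells, opposite in direction to S100a5. Of 25 measured 18 were lower and 0 higher, with a median of -2.28, and the same 18 remained without each odor pool in turn. Fos, an AP-1 subunit, lay at 11.81, 10.59, 10.77 and 11.39 in GFP+ cells and at 15.70, 15.34, 14.87 and 15.90 in GFP- cells. The fractions did not overlap, the GFP+ levels of Fos were well above background, and the difference was -4.31 ± 0.20. Egr1, a zinc finger factor, lay at 8.23, 8.38, 7.56 and 8.12 against 14.19, 13.81, 13.06 and 14.07 in GFP- cells, a difference of -5.71 ± 0.14 (adjusted p = 1.04e-09). Egr2 lay at 6.90, 7.61, 7.29 and 6.43 in GFP+ cells and at 13.57, 13.26, 12.42 and 13.80 in GFP- cells, a difference of -6.21 ± 0.35 (adjusted p = 2.14e-07). For both factors the lowest GFP- level was that of pool 3. The antiproliferative Btg2 was lower by 5.47 (SE 0.21), Fosb by 5.27 (SE 0.24), the RNA-binding protein Zfp36 by 5.02 (SE 0.21), Junb by 4.10 (SE 0.19) and the nuclear receptor Nr4a1 by 2.41 (SE 0.29). Nr4a2 was at least 10.5-fold and Nr4a3 at least 5.82-fold lower. Jun was lower by less, 0.75 (SE 0.12, adjusted p = 7.46e-04). Neither Jund nor Dusp1 was called: Jund differed by 0.01 ± 0.14 (interval -0.29 to 0.32), and Dusp1, a phosphatase induced with them, by -0.31 ± 0.14 (adjusted p = 0.151). Neutrophil, macrophage and lymphocyte markers, with the summed levels given above, moved with these genes over the same 8 arrays, and their part in the result was not tested.

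Markers of the epithelial cells that surround the neurons were lower in part. Of 14 markers of sustentacular cells 8 were lower, with summed log2 levels of 14.89 to 15.28 in GFP+ and 16.41 to 16.57 in GFP- cells. Bowman gland markers were lower in 8 of 14 and microvillar and brush cell markers in 15 of 18. Of the latter 18 genes 11 were not above background in GFP+ cells. The summed levels of both lists overlapped between the fractions. They were 13.34 to 13.88 in GFP+ and 13.67 to 14.11 in GFP- cells for Bowman gland markers. For microvillar and brush cell markers they were 15.59 to 15.87 in GFP+ and 15.11 to 15.95 in GFP- cells. A single microvillar marker was higher, and none was without odor replicate 1, 3 or 4. Cyp2f2, a P450 enzyme of sustentacular cells, lay at 11.21, 11.16, 11.48 and 10.76 in GFP+ cells and at 12.58, 12.54, 12.87 and 12.52 in GFP- cells. Its difference was -1.48 ± 0.16 (adjusted p = 4.43e-05). Of 98 cytochrome P450 genes 5 (5.1%) were higher and 7 (7.1%) lower, below the shares of all genes (7.96% and 10.6%), with 2 higher without odor replicate 1, 30 higher with median centring and the same 7 lower without each odor pool in turn. Krt18, a keratin of simple epithelia, was lower by 3.68 on the log2 scale (SE 0.30) and its partner Krt8 was at least 4.99-fold lower. Gstm1, a glutathione transferase, was lower by 1.08 (SE 0.23, adjusted p = 0.0065), among 6 of 22 genes of that family. Scgb1c1, a secretoglobin of the nasal glands, was lower by 3.26 (SE 0.41) and Bpifb3, a mucosal lipid-binding protein, by 1.61 (SE 0.22). Markers of respiratory ciliated cells went the other way, with 4 of 14 higher, 2 without odor replicate 1 and 1 without odor replicate 3. In GFP- cells of pool 3 these markers lay 0.33 under their mean over the pools by median.

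Other groups had no call or only a few by number. Of 25 mature sensory neuron markers 3 (12.0%) were higher and 1 (4.0%) lower, beside 7.96% and 10.6% of all genes. Their median was 0.21, and without odor replicate 1 or 4 none was lower. Median centring called 17 of them higher. The summed log2 level of these markers was 21.54 to 21.56 in GFP+ and 21.33 to 21.41 in GFP- cells. Of 18 factors of sensory neuron identity 1 was lower, and none was without odor replicate 1, 2 or 3. Lhx2, a homeodomain factor of these neurons, differed by 0.12 ± 0.13 (interval -0.18 to 0.41). None of 4 Ebf genes and none of 10 Lhx and Lmx genes was called. Of the Lhx and Lmx genes 6 were not above background in GFP+ and 6 in GFP- cells. None of 6 genes of the dorsal zone of the mucosa and none of 8 genes of the ventral zone was called, although median centring called 1 and 2 of them higher and quantile normalization 1 dorsal gene lower. The dorsal marker Nqo1, a quinone reductase, lay at 16.23, 16.46, 16.37 and 16.53 in GFP+ cells and at 16.02, 16.43, 16.19 and 16.63 in GFP- cells. These groups overlapped, with a difference of 0.08 ± 0.12 (interval -0.19 to 0.35). The ventral marker Nrp2, a semaphorin receptor, differed by 0.30 ± 0.17 (interval -0.07 to 0.66) and was called with median centring alone (adjusted p = 0.0268). Of 42 collagens none was called, with differences from -0.37 to 0.52, and 7 were higher with median centring. Most of them were not detected, since 34 were not above background in GFP+ and 32 in GFP- cells. A call that was not made does not show that the fractions were alike.

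Odorant receptors differed in both directions and over a wide range. Of 1091 measured receptor genes 471 were higher and 251 lower, against 7.96% and 10.6% of all genes, and 409 and 218 remained without each odor pool in turn. Differences over 2-fold were found in 419 higher and 224 lower receptors, and those over 16-fold in 27 higher and 74 lower. Near-identical receptor genes can share probe sequence, so neighbouring members of the family may not be fully separate measurements. Olfr536 lay at 14.27, 14.21, 13.98 and 13.61 in GFP+ cells and at 8.49, 8.60, 6.71 and 7.43 in GFP- cells. Its difference of 6.21 ± 0.27 was the largest among the higher receptors, and all 8 arrays were above background. Olfr309 lay at 15.41, 15.22, 15.74 and 15.16 against 9.31, 9.85, 9.61 and 9.46, a difference of 5.83 ± 0.19. Olfr533 was higher by 5.48 ± 0.27, Olfr1099 by 5.47 ± 0.20 and Olfr110 by 5.21 ± 0.22. In the opposite direction Olfr1507 lay at 6.81, 6.50, 6.07 and 4.88 in GFP+ cells and at 14.52, 14.77, 13.90 and 13.76 in GFP- cells. Its GFP+ level in pool 4 was under background, and the difference was -8.18 ± 0.21. Olfr1297 was lower by 7.56 on the log2 scale (SE 0.34), Olfr460 by 7.19 (SE 0.34), Olfr99 by 7.18 (SE 0.35) and Olfr393 by 7.08 (SE 0.45), each above background in the GFP+ cells of all 4 pools.

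The background set a limit for part of the receptors. Of the higher receptors 48 were not above background in GFP- cells, among them Olfr481, at least 27.7-fold higher, and Olfr490, at least 13.7-fold higher. Of the lower receptors 66 were not above background in GFP+ cells, and Olfr390 was at least 138-fold lower. Over all odorant receptors, 91 were not above background in either fraction, and this set overlaps with the called ones. Trace amine receptors, a second family of receptors of sensory neurons, were higher in 8 and lower in 5 of 15. Taar9 was higher by 2.97 ± 0.27 (adjusted p = 9.84e-06) and Taar4 by 2.81 ± 0.35, while Taar2 was lower by 4.75 on the log2 scale (SE 0.34, adjusted p = 1.31e-06) and Taar6 by 3.06 (SE 0.39). Vomeronasal receptors, which belong to another organ, had 10 higher (3.1%, against 7.96% of all genes) and 0 lower of 319, with a median of 0.18. Of the 319 genes 309 were not above background in GFP+ and 311 in GFP- cells. Without odor replicate 2 these counts were 5 and 2, without odor replicate 4 they were 5 and 0, and median centring called 93 higher.

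**Figure D4:**
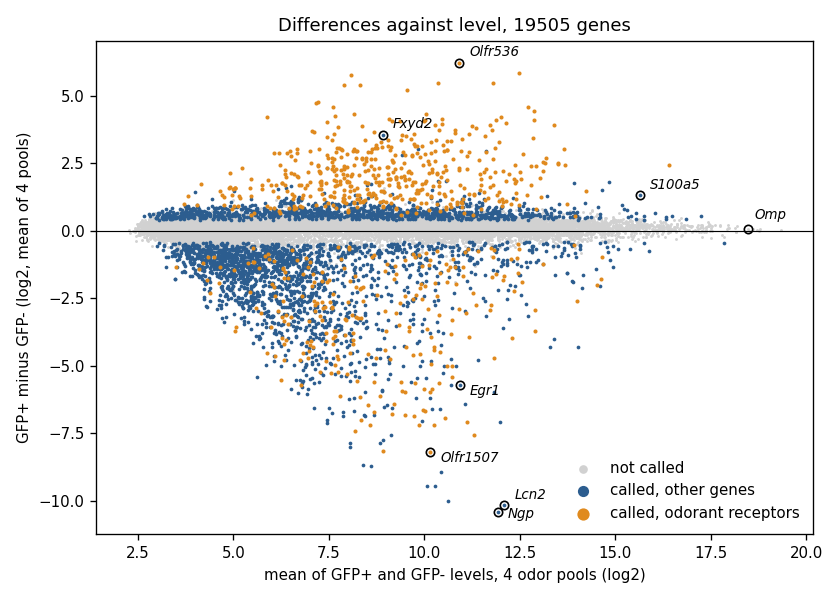
GFP+ minus GFP- log2 difference (vertical axis, mean of 4 odor pools) of all 19505 genes against the mean log2 level of both fractions (horizontal axis), with called odorant receptors and other called genes in colour. Receptors make up most of the spread above 2, with Olfr536 at 6.21, while the lower side holds receptors and other genes down to Ngp at -10.41.

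Differences of odorant receptors varied more over the pools than those of other genes with a like level in the brighter fraction. Among genes whose brighter fraction lay between 8 and 10, the median SD of the difference over the 4 pools was 0.57 for 313 odorant receptors and 0.33 for 2615 other genes. Between 12 and 14 these were 0.55 for 158 receptors and 0.23 for 1838 other genes. The level of the dimmer fraction was not matched, and its part in these SDs was not tested. Single receptors varied more. Olfr1213 differed by -8.73, -3.57, -6.03 and -8.36 in pools 1 to 4, and in pool 2 its GFP+ level reached 9.74, whereas in the other pools it was under background. Olfr1030 differed by -2.19, -6.53, -2.74 and -6.46, with GFP+ levels of 9.57 and 9.32 in pools 1 and 3 and of 6.86 and 6.98 in pools 2 and 4. Olfr211 differed by 3.36, 3.95, 6.99 and 2.62, and in pool 3 it was both highest in GFP+ and lowest in GFP- cells. Outside the receptors, Camp, the neutrophil antimicrobial peptide, differed by -8.51, -6.84, -3.67 and -7.20. Camp was not above background in GFP+ cells, and its GFP- levels were 12.58, 10.81, 8.37 and 11.39.

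Pool 3 carried the widest differences on the higher side. Of the 1552 higher genes 713 (45.9%) had their largest difference in pool 3, against 22.6%, 14% and 17.5% in pools 1, 2 and 4. Of all genes 8.91% differed in pool 3 by over 1 from the mean of the other pools, against 3.47% to 4.32% for the other pools. In GFP- cells of pool 3 the neutrophil markers lay 0.51 and the macrophage markers 0.46 under their mean over the pools by median, whereas mature sensory neuron markers lay 0.04 under theirs. The low neutrophil markers were not particular to pool 3. In GFP- cells of pool 2 they lay 0.49 under their mean, and the macrophage markers 0.09 under theirs. The Y-linked gene Uty lay at 11.60, 10.44, 4.09 and 11.29 in GFP+ cells and at 11.21, 10.46, 3.56 and 10.96 in GFP- cells. In pool 3 Uty was therefore low in both fractions, while its level was high in the other pools. The part of these values in the differences of pool 3 was not tested. Without odor replicate 3 the counts were 1093 higher and 1897 lower, and S100a5, Pcdh10, Kirrel2, Fxyd2 and Avp kept their calls.

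The same separation was measured in the 4 filtered-air pools, which share no sample with the odor pools. The calls of the arms are not independent, since the variance of each gene was estimated from both arms together. There 1728 genes (8.86%) were higher and 2107 (10.8%) lower. Of the genes called in odor pools, 923 of the 1552 higher and 1807 of the 2068 lower were also called in filtered air, 0 were called in the opposite direction, and 1498 and 2057 had a mean of the same sign. S100a5 differed by 1.27 ± 0.17 in filtered air against 1.31 in odor pools, Fxyd2 by 3.52 ± 0.30 against 3.56, and Ngp by -9.86 ± 0.25 against -10.41. The test of odor minus filtered air in this difference, by limma, called 0 genes, with 654 (3.35%) at an unadjusted p under 0.05 and 1 call when the variance was given an intensity trend. The smallest p belonged to Olfr76, whose GFP+ cells of odor pools lay at 10.53, 10.61, 10.72 and 10.86 and GFP- cells at 7.34, 7.97, 7.51 and 7.48. Its difference was 3.20, 2.64, 3.21 and 3.38 in the odor pools and 1.59, 1.07, 1.34 and 1.02 in the filtered-air pools. These did not overlap, the arms differed by 1.85 ± 0.22, and after adjustment over all genes the p was 0.086. Olfr851 differed by 4.12 in odor and 1.74 in filtered-air pools, 2.38 ± 0.39 apart (adjusted p = 0.817), and Olfr58 by 2.94 and 1.14, 1.80 ± 0.33 apart (adjusted p = 1).

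**Figure D5:**
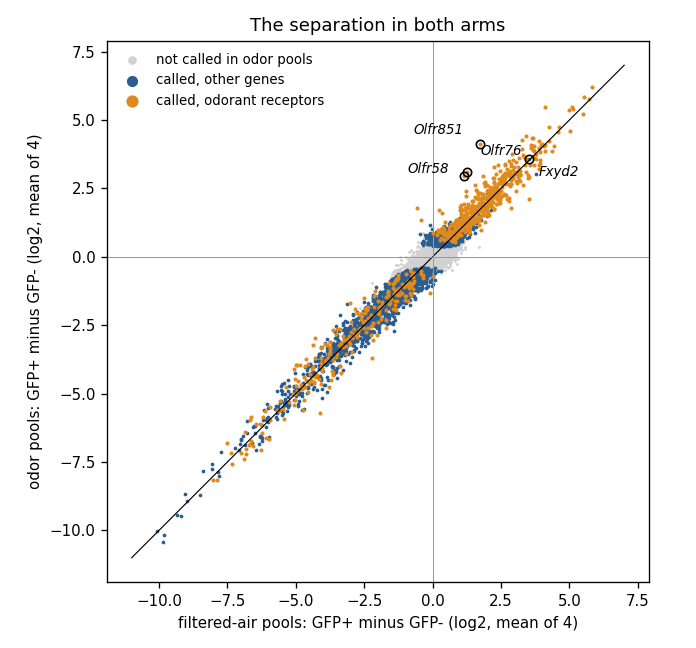
Mean GFP+ minus GFP- log2 difference of each gene in odor pools (vertical axis) against that in filtered-air pools (horizontal axis), with the line of equality and genes called in odor pools in colour. Points lie along the line from Ngp at the lower end to the receptors at the upper end, Fxyd2 lies on it at 3.56 and 3.52, and Olfr851, Olfr76 and Olfr58 lie above it without passing the test between arms.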

How the data were processed

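RNA of GFP+ and GFP- cells from 4 odor-exposed and 4 filtered-air pools was measured on 16 Clariom S arrays, 1 per sample, at 50 to 100 ng of RNA. The authors deposited normalized log2 levels per probe, and the submitters' processing notes name Affymetrix Expression Console without a version. The labels do not say how background and arrays were normalized. Scanner files were not used. The number of arrays limits the precision, and an array has no read depth.

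Of 28846 probes, 19572 had 1 symbol in the platform annotation, 0 had several and 9274 had none. They stand for 19505 genes, all matched to RefSeq by gene ID, and for 55 genes with several probes the probe of highest mean was used. The vehicle pool labelled as a further replicate 3 was numbered 4.

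The within-pool log2 difference was fitted with limma 3.58.1 in R 4.3.3 (residual df 6, prior df 5.04), with both arms sharing the variance, and p-values were adjusted by Benjamini-Hochberg over all genes at a threshold of 0.05. The pool was a block because both fractions come from the same mice. Their deviations correlated at 0.109 to 0.249 in each of the 8 pools, above those with any other pool. Intervals are at 95%, and errors in the text are SE of the limma fit, whose variance comes from all 8 pools, unless said otherwise. A summed level is the log2 of the sum of a list's linear levels on an array. The test was checked on simulated data. Dixon's critical value for 4 pools was 0.829. Alternatives were other scalings, filters, variance models and samples. Genes named were the markers, the 15 largest differences in each direction that were not receptors, had 1 sign in all pools and a mean level over the mean background in both fractions, the 5 largest receptors in each direction, genes bounded by the background, called members of largest difference and contrasting members of each list, the genes of largest SD over pools and those of smallest p between arms. Eif2s3y and Uty were named after their values were seen. The members and lists were chosen with earlier results of these data known.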

Additional observations from a re-analysis of the deposited data

Results flagged for a closer look

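The pools of a group were compared with each other gene by gene. In 12 of the 157 genes named above, 1 of the 4 odor pools stood apart by Dixon's criterion. Chance meets that criterion in about 1 of 20 groups, so chance alone would give several such genes. Pool 3 stood apart in 6 of the 12. Its difference was 1.27 for Eif2s3y, whose levels there were under the background in both fractions, 1.00 for Scn4b, 0.38 for Pcdh7, -0.12 for Chga, -2.65 for Krt8 and -5.73 for the odorant receptor Olfr99. Pool 4 stood apart for Cyp26b1, with a difference of 1.97, for Cyp2f2, with -1.77, and for the odorant receptor Olfr481, with 5.93. Pool 1 stood apart for Tgfb1, with -4.29, and for Syt4, with 1.18, and pool 2 for S100a6, with -0.77.

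Slc6a14, an amino acid transporter, differed in sign between the arms. Its difference between GFP+ and GFP- cells was 0.84, 0.69, 0.79 and 1.01 in the odor pools and -0.30, -1.19, -0.26 and -0.06 in the filtered-air pools, and the arms lay 1.29 ± 0.25 apart. The gene was not above background in either fraction of the odor pools, and limma's adjusted p for the arms was 1.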

How the results depend on the processing

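The number of genes higher in GFP+ cells was 1552 and moved by over 1.5 times with median centring, to 6458, and without odor replicate 1, to 972. With the other scalings, filters and variance models it lay between 1164 and 1977, and leaving out 1 pool gave 972 to 1653. The number lower, 2068, lay between 1507 and 2115 under all alternatives run, including a fit of GFP+ and GFP- samples as unpaired groups, with no replicate block for the pool (1325 higher, 1948 lower). No gene was called in the opposite direction under any of them. Of 141 named genes that were called, 132 kept the call and its direction in each setting. The others, Acyp2, Ano2, Chgb, Gstm1, Pcdh17, S100a13, S100a3, S100a4 and S100a6, lost the call in at least 1 setting, and 5 named genes gained one with median centring. The cause was not tested. Between arms 0 genes were called, as in all alternatives but the intensity trend, which called 1 (Olfr76, adjusted p = 0.0403). The adjusted p of Olfr76 ranged from 0.0403 to 1 over the alternatives. Replicate numbers were checked as a pairing of arms, and the differences of same-numbered pools correlated at 0.097 to 0.305, under 0.1 for replicate 2. With the replicate block between arms 0 genes were called and 907 had an unadjusted p under 0.05. With the 75th percentile of the background probes as the floor, 1302 lower genes in place of 1044 were not above background in GFP+ cells, and 417 higher genes in place of 319 in GFP- cells. With the median as the floor these include 295 lower and 236 higher genes that were not above background in either fraction and have no bound. For the others the difference can at most be given as a bound.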
